A study of Mus musculus with 8 samples.

Results

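The genes described here encode the killing machinery and identifying receptors of natural killer (NK) cells and CD8 T cells. Of the 10 genes, Nkg7, Gzma, Gzmb and Prf1 belong to the cytotoxic granule, Klrk1, Klrd1, Klrb1c and Ncr1 encode receptors of the NK cell surface, and Cd8a and Cd8b1 encode the chains of the CD8 coreceptor. Members were taken as every probe set of the array whose only gene symbol in the platform annotation is one of these names. This gave 14 probe sets for 9 of the 10 genes, out of 45037 probe sets and 18193 genes in all. The only probe set of Klrb1c is shared with Klrb1b, so no value is given to Klrb1c.

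Cytotoxic lymphocytes store perforin and granzymes in granules and release them onto a target cell, where perforin opens the membrane and granzymes enter to trigger death. NK cells decide through the balance of activating and inhibitory receptors, many of them lectin-like proteins of the killer cell lectin-like receptor family, whereas CD8 T cells use the T cell receptor with CD8 as coreceptor for MHC class I. In the airway such cells are known from defence against viruses and from the resident memory T cells that stay in the mucosa after infection.

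RNA came from a dissection of the distal trachea with the carina in 4 old mice (14 month) and 4 young mice (2 month). All were C57Bl/6 females with no transgene or treatment named in the labels, and each mouse had an Affymetrix Mouse Genome 430 2.0 array of its own. The old mice are numbered 1, 2, 5 and 6 and the young mice 3, 4, 7 and 8. Values are signals on a linear scale in arbitrary units. The mean of every array without its highest and lowest 2% was 500.002, and the median signals lay between 150.0 and 161. The airway epithelial markers were bright in both ages, with a summed signal over 8 genes of 73727 to 85458 in old mice and 74651 to 81209 in young mice. The files carry no detection call, so a low signal cannot be called absent. In the dimmer of 2 equal parts of the probe sets, split at a mean signal of 151, the median SD between mice of an age was 0.491 on the log2 scale, against 0.157 in the brighter part. Of the 14 member probe sets, those of Klrk1 and Klrd1, that of Gzma and 1 of Prf1 are in the brighter part. Each change is a difference in mean log2 signal, old minus young, and stands with the standard error (SE) of a limma fit, and adjusted p-values run over all 45037 probe sets unless the gene level is named.

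Among the cytotoxic genes, Nkg7, Klrk1 and Klrd1 had higher signals in every old mouse than in any young mouse, by 2.17, 1.41 and 1.49 fold. Gzmb had the opposite sign, at 0.492 of the young level, with overlap through 1 old mouse. Gzma, Prf1 and Ncr1 had log2 fold changes between -0.13 and 0.24, and those of Cd8a and Cd8b1 were positive, all with intervals that held 0. The intervals differed in width, from -0.97 to 0.86 for Gzma, -0.06 to 3.08 for Cd8b1 and -0.32 to 0.53 for the brightest Cd8a probe set. No member passed an adjusted p of 0.05 in either direction, a threshold that 0.0533% of all probe sets passed as higher in old mice and 0.0178% as lower. The study's methods name a fold of over 2 together with a p below 0.05 and do not say whether that p was adjusted. With these thresholds on the unadjusted p, Nkg7 was the 1 member probe set that passed as higher (1.19% of all probe sets) and Gzmb the 1 that passed as lower (0.802%). An unadjusted p under 0.05 was reached by 3 member probe sets with a positive change (5.76% of all) and 1 with a negative change (5.41%). Complete separation of the ages was seen in 3 of 14 member probe sets as higher (4.05% of all probe sets) and in 0 as lower (3.75%). The sign was positive in 11 of the 14, against 48.9% of all probe sets. Since several probe sets stand for Cd8a and Prf1, these counts are not counts of independent genes. With 1 brightest probe set per gene, 6 of the 9 genes had a positive change (49.0% of all 18193 genes). Of the 9, 3 were separated as higher (5.02% of all genes) and 0 as lower (5.11%), 3 had a positive change at an unadjusted p under 0.05 (7.31%) and 1 a negative one (7.28%). With the fold of 2 added, 1 remained on each side (1.11% of all genes as higher and 0.588% as lower).

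**Figure D1:**
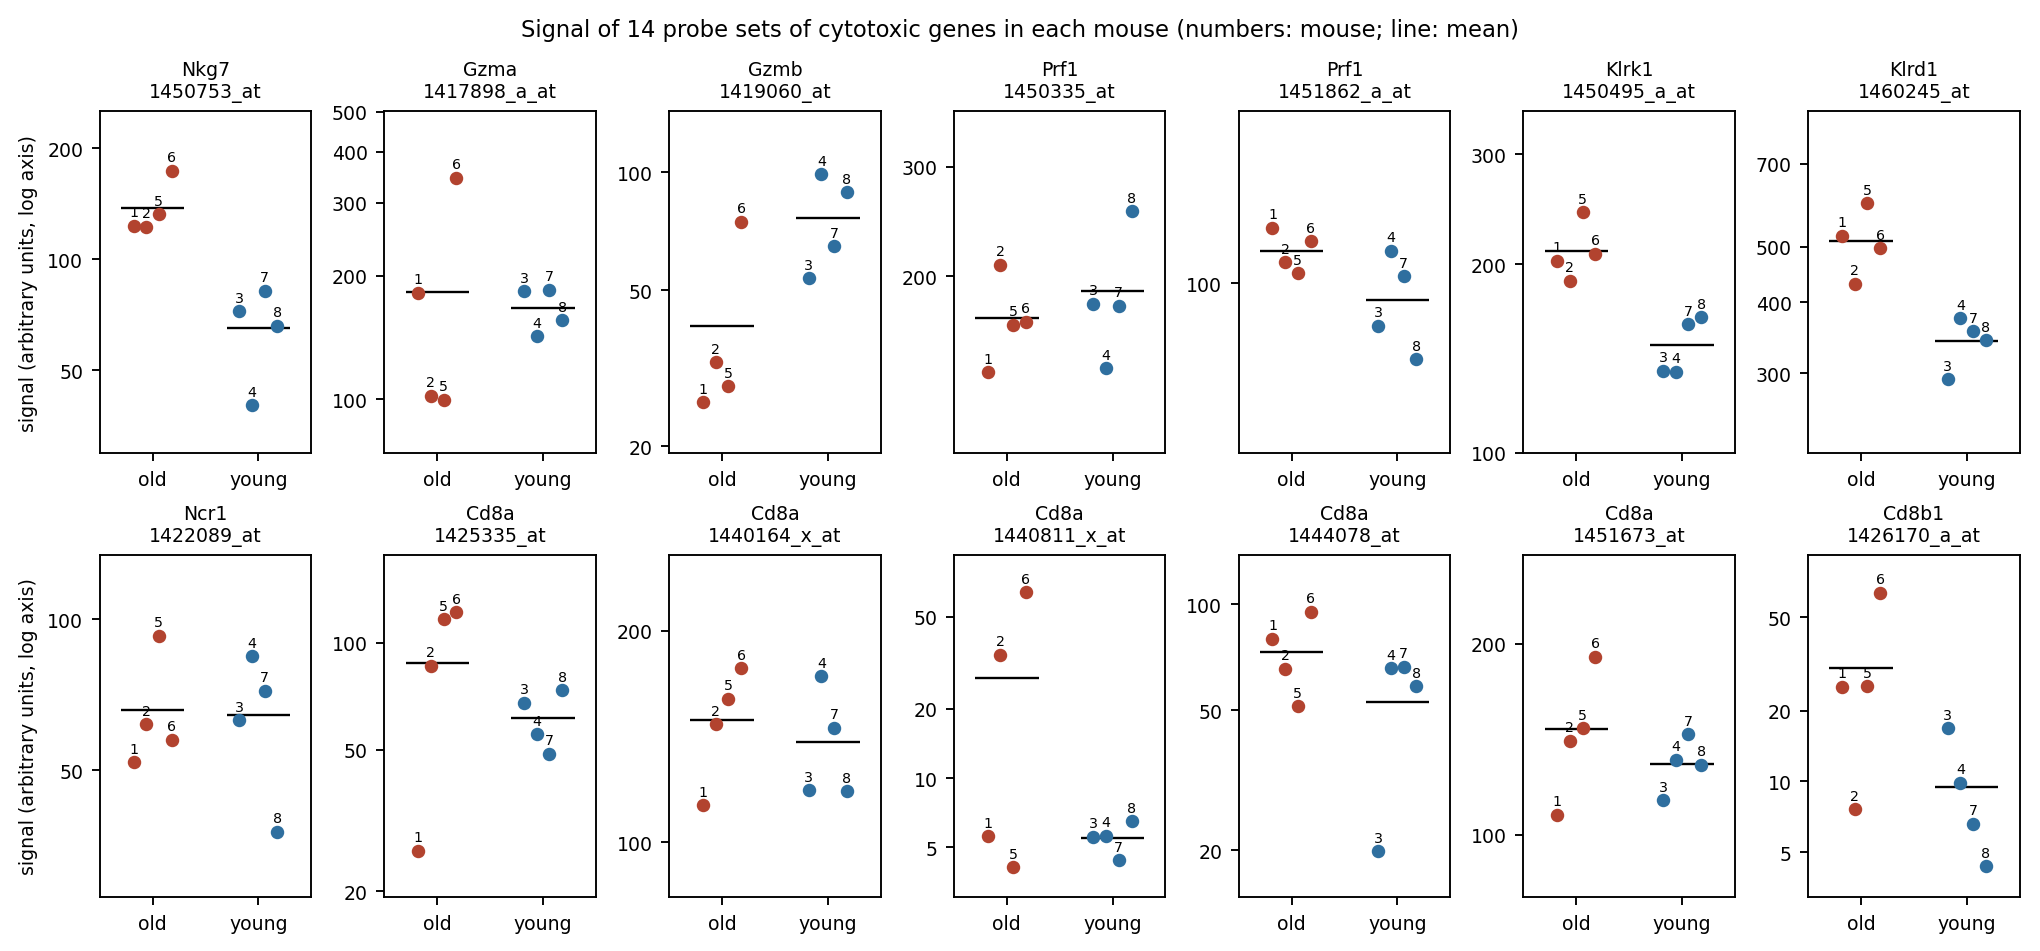
Signal in arbitrary units (log axis) of each of the 14 member probe sets, with old mice to the left and young mice to the right. Each point is 1 mouse with its number, and the line is the mean of 4 mice. For Nkg7, Klrk1 and Klrd1 the old points lie above all young points, and for Gzmb only old mouse 6 lies among the young mice.

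Nkg7 encodes a membrane protein of the cytotoxic granule that NK and T cells use when they release it. Its probe set 1450753_at read 123, 123, 133 and 174 in old mice 1, 2, 5 and 6, against 72.3, 40.2, 82.1 and 66.0 in young mice 3, 4, 7 and 8. The lowest old mouse lay clearly above the highest young mouse, and the lowest of all was young mouse 4. Nkg7 averaged 138 ± 24.4 in old mice and 65.1 ± 17.9 in young mice (SD, n = 4 each). The log2 fold change was 1.12 (SE 0.24, 95% confidence interval 0.57 to 1.67), with an adjusted p of 0.158 and an exact permutation p of 0.0286, the smallest that 70 divisions of 8 mice allow. Among the 9 member genes it had the smallest p at the gene level, where 1 brightest probe set stands for a gene and its adjusted p was 0.0951. Without young mouse 4 the log2 fold change of Nkg7 was 0.90, below the fold of 2. Nkg7 differed by a like amount in both parts of the numbering, 1.19 in mice 1 to 4 and 1.04 in mice 5 to 8.

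Prf1 encodes perforin, the pore-forming protein of the granule, and was read by a pair of probe sets. The brighter, 1450335_at, read 140, 208, 167 and 169 in old mice, against 181, 142, 179 and 254 in young mice. The log2 fold change was -0.13 (SE 0.20, interval -0.59 to 0.33, adjusted p = 0.857). The second, 1451862_a_at, read 119, 107, 103 and 114 in old mice, against 87.3, 111, 102 and 78.5 in young mice, a change of 0.24 (SE 0.13, interval -0.06 to 0.53, adjusted p = 0.546). The ages overlapped in both and the signs were opposite, so the array gives no settled direction for perforin.

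Gzma encodes granzyme A, a tryptase and an abundant granule protease of NK cells. Probe set 1417898_a_at read 181, 102, 99.9 and 346 in old mice, against 183, 142, 185 and 156 in young mice. Old mouse 6 was far above all others, while old mice 2 and 5 were below every young mouse. The mean was 182 ± 115 in old mice and 166 ± 20.9 in young mice, and the log2 fold change was -0.06 (SE 0.39, interval -0.97 to 0.86, adjusted p = 0.973). The interval is wide enough to hold a change by almost a factor of 2 either way. Without old mouse 6 the value was -0.43, still with overlap.

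Gzmb encodes granzyme B, the protease that cleaves caspases and other substrates after aspartate. Probe set 1419060_at read 25.9, 32.7, 28.4 and 74.9 in old mice, against 53.8, 98.9, 64.8 and 89.2 in young mice. Old mice 1, 2 and 5 lay below every young mouse and old mouse 6 lay among them. Gzmb averaged 40.5 ± 23.1 in old mice and 76.7 ± 21.0 in young mice. The log2 fold change was -1.02 (SE 0.37, interval -1.88 to -0.17), with an adjusted p of 0.371 and an exact permutation p of 0.0857. When old mouse 1, 2 or 5 was left out, or young mouse 4 or 8, the log2 fold change lay between -0.97 and -0.86 and Gzmb no longer passed the fold of 2. Without old mouse 6 it was -1.37, with complete separation and an adjusted p of 0.170 (range over all alternatives 0.170 to 0.748). The probe set is in the dimmer part of the array, and where low signals were raised to a floor of 32 or 64 its fold no longer exceeded 2. Gzmb thus had the sign opposite to that of Nkg7 in the same mice, and old mouse 6 was the highest old mouse for both granzymes and for Nkg7.

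The ratio of the granzymes was compared by an exact permutation test over mice. The log2 signal of Gzma minus that of Gzmb was 2.81, 1.64, 1.81 and 2.21 in old mice 1, 2, 5 and 6, against 1.77, 0.52, 1.51 and 0.80 in young mice 3, 4, 7 and 8. It was 0.97 higher in old mice, with an exact permutation p of 0.0571 and of 0.129 after adjustment over the 3 ratios tested, so the difference did not pass.

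Klrk1 encodes NKG2D, an activating receptor that recognises stress-induced ligands of the MHC class I type. Probe set 1450495_a_at read 203, 188, 242 and 208 in old mice, against 135, 135, 161 and 165 in young mice. All old mice lay above all young mice, with the narrowest gap between old mouse 2 and young mouse 8. Klrk1 averaged 210 ± 22.8 in old mice and 149 ± 16.1 in young mice, and the log2 fold change was 0.50 (SE 0.12, interval 0.22 to 0.77, adjusted p = 0.204, exact permutation p = 0.0286). It was 0.53 in mice 1 to 4 and 0.46 in mice 5 to 8.

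Klrd1 encodes CD94, the partner that the NKG2 chains of the Klrc genes need to reach the surface of NK cells and some CD8 T cells. Probe set 1460245_at read 522, 431, 597 and 497 in old mice, against 293, 375, 356 and 343 in young mice, again without overlap. Klrd1 averaged 512 ± 68.5 in old mice and 342 ± 34.9 in young mice, and the log2 fold change was 0.58 (SE 0.13, interval 0.28 to 0.88, adjusted p = 0.176, exact permutation p = 0.0286). When only the brighter part of the probe sets was tested, Klrd1 passed with an adjusted p of 0.0367, in a range of 0.0367 to 0.334 over all alternatives. Klrk1 had 0.0472 there and a range of 0.0472 to 0.379, but its young mean of 149 lies under the split of 151, so it is in the brighter part through its old mice, and that value is no support.

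Klrk1 and Klrd1 are next to each other on chromosome 6 among the measured genes of the NK gene complex. Their log2 signals had a Pearson correlation of 0.92 over the 8 mice and of 0.63 once the mean of each age was taken out. The first value includes the difference of the ages that both genes had, and Nkg7 with Klrk1 had 0.86. Within age, Gzma with Cd8b1 had 0.69 and Ncr1 with Cd8a 0.64, while every other member pair was lower than Klrk1 with Klrd1. Of the 18 measured genes in that neighbourhood, only Klrd1, Klrk1 and Klra17, a Ly49-type receptor gene, had complete separation of the ages, against 5.02% of all genes separated as higher, and Klrd1 and Klrk1 are the genes around which the neighbourhood was drawn. Klrc1 and Klrc2, which encode NKG2 chains that pair with CD94, had log2 fold changes of 0.14 (SE 0.50) and -0.83 (SE 0.67). These values, like those of the adaptor Hcst below, are given for their link to a member, chosen after the values were seen.

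Ncr1 encodes NKp46, the receptor that marks NK cells across mammalian species. Probe set 1422089_at read 51.9, 61.7, 92.6 and 57.5 in old mice, against 62.9, 84.4, 72.0 and 37.7 in young mice, with a log2 fold change of 0.06 (SE 0.29, interval -0.60 to 0.72, adjusted p = 0.960). The ages overlapped throughout. The sign turned when old mouse 5 was left out (-0.12) or young mouse 8 (-0.18). Klrb1c encodes NK1.1, the classical NK cell marker of this mouse strain. The probe set that it shares with Klrb1b, 1449570_at, read 14.2, 9.22, 11.2 and 37.0 in old mice, against 10.6, 14.5, 81.4 and 12.7 in young mice, all low and overlapping, and cannot be assigned to either gene.

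**Figure D2:**
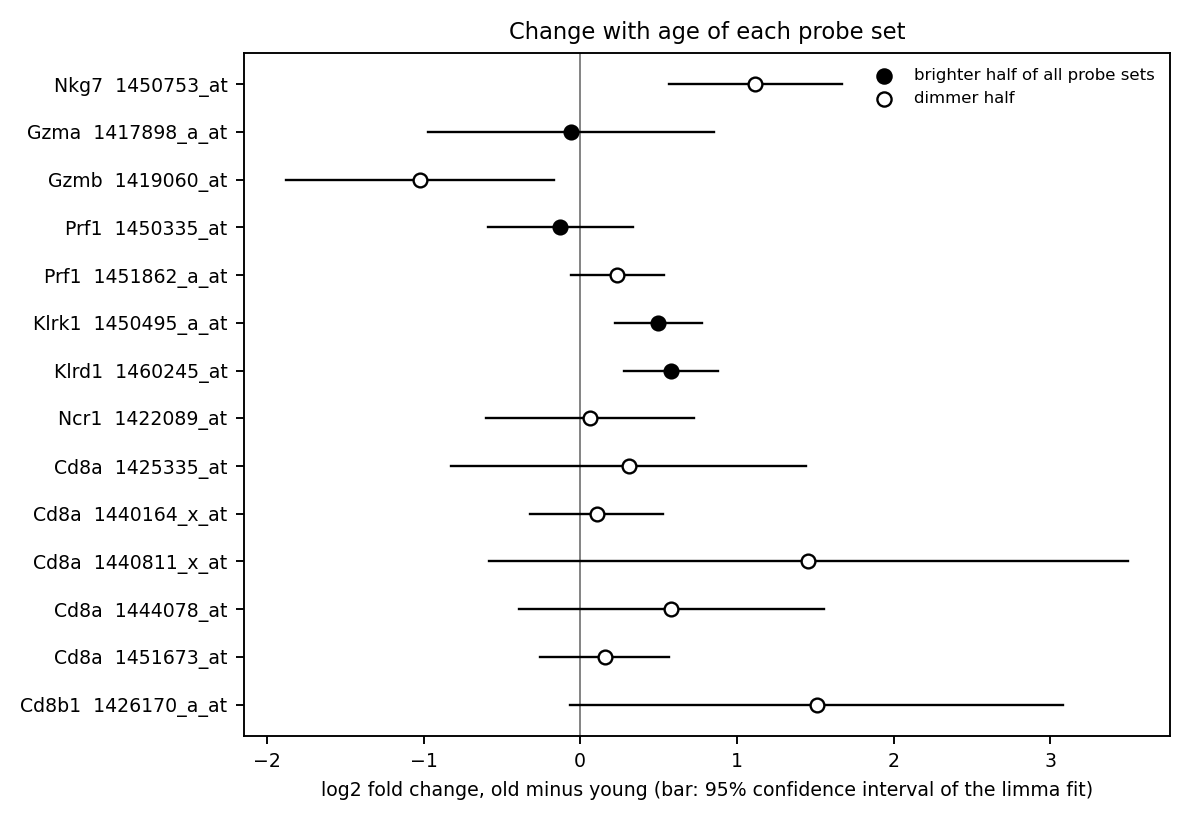
Log2 fold change of old minus young for the 14 member probe sets, with the 95% confidence interval of the limma fit as a bar. Filled points are in the brighter part of all probe sets and open points in the dimmer part, and the intervals of Nkg7, Klrk1, Klrd1 and Gzmb leave out 0.

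CD8 is a pair of an alpha and a beta chain on most cytotoxic T cells, while some intestinal and dendritic cells carry alpha chains alone. Cd8a, the alpha chain, had 5 probe sets, with log2 fold changes of 0.10 to 1.46 and overlap of the ages in all of them. The brightest, 1440164_x_at, read 113, 147, 160 and 177 in old mice, against 118, 172, 146 and 118 in young mice, a change of 0.10 (SE 0.18, interval -0.32 to 0.53, adjusted p = 0.874). Probe set 1451673_at read 108, 141, 147 and 191 in old mice, against 113, 131, 144 and 129 in young mice, a change of 0.16 (SE 0.18). The order of the old mice was the same in both, with mouse 1 lowest and mouse 6 highest. Probe set 1425335_at read 26.0, 86.2, 117 and 122 in old mice, against 68.0, 55.4, 48.8 and 73.6 in young mice, where old mice 2, 5 and 6 lay above every young mouse and old mouse 1 below all of them (0.31, SE 0.49). Without old mouse 1 its change was 0.82 with complete separation and an adjusted p of 0.286 (range over all alternatives 0.286 to 0.973), and without old mouse 6 it was 0.08. Probe set 1444078_at (0.58, SE 0.42) read 79.9, 65.7, 51.3 and 95.2 in old mice, against 19.9, 65.8, 66.5 and 58.6 in young mice, and without young mouse 3 its change was 0.16. The last, 1440811_x_at, had a change of 1.46 (SE 0.87) and read 5.59, 34.3, 4.11 and 64.2 in old mice, against 5.56, 5.61, 4.39 and 6.51 in young mice, so that the change rests on old mice 2 and 6. It was 2.08 without old mouse 5, 0.76 without old mouse 6 and 0.28 with a floor of 32 on the signal. The smaller changes of 1440164_x_at and 1451673_at were both 0.02 without old mouse 6.

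Cd8b1, the beta chain, was dim throughout. Probe set 1426170_a_at read 25.4, 7.61, 25.5 and 63.7 in old mice, against 16.9, 9.88, 6.60 and 4.35 in young mice. Old mice 1, 5 and 6 lay above every young mouse and old mouse 2 among them. The log2 fold change was 1.51 (SE 0.68, interval -0.06 to 3.08, adjusted p = 0.466, exact permutation p = 0.0857). With a floor of 32 it was 0.25. It was 0.10 in mice 1 to 4 and 2.91 in mice 5 to 8, and 1.03 without old mouse 6. Without old mouse 2 it was 2.05, with complete separation and an adjusted p of 0.346 (range over all alternatives 0.346 to 0.745).

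CD8 was also set against the NK and T cell compartments through ratios of brightest probe sets. The log2 signal of Cd8a minus that of Ncr1 was 1.12, 1.25, 0.79 and 1.62 in old mice, against 0.91, 1.03, 1.02 and 1.65 in young mice, a difference of 0.04 (exact permutation p = 0.886). Cd8a minus Cd3e, a chain of the CD3 complex that all T cells share, was -0.20, 0.45, -0.09 and 0.15 in old mice, against 0.57, 0.65, 0.57 and 0.15 in young mice. That difference was -0.41 (exact permutation p = 0.0857, 0.129 adjusted over the 3 ratios) and became 0.0075 when all probe sets of each gene were averaged, so it depends on which Cd8a probe sets are read.

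The 9 genes did not move as a block across mice. Old mouse 6 had the highest signal of the 8 mice for Nkg7, Gzma, Cd8a and Cd8b1, whereas old mouse 5 was highest for Klrk1, Klrd1 and Ncr1, young mouse 4 for Gzmb and young mouse 8 for Prf1. The mean of the 9 centred log2 signals was -0.0006, -0.16, 0.16 and 0.59 in old mice 1, 2, 5 and 6, against -0.11, -0.13, -0.10 and -0.26 in young mice 3, 4, 7 and 8. The lowest old mouse, mouse 2, was thus below 3 of the young mice. The summed signal of the 9 genes ran between 1302 and 1767 in old mice and between 1116 and 1251 in young mice.

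**Figure D3:**
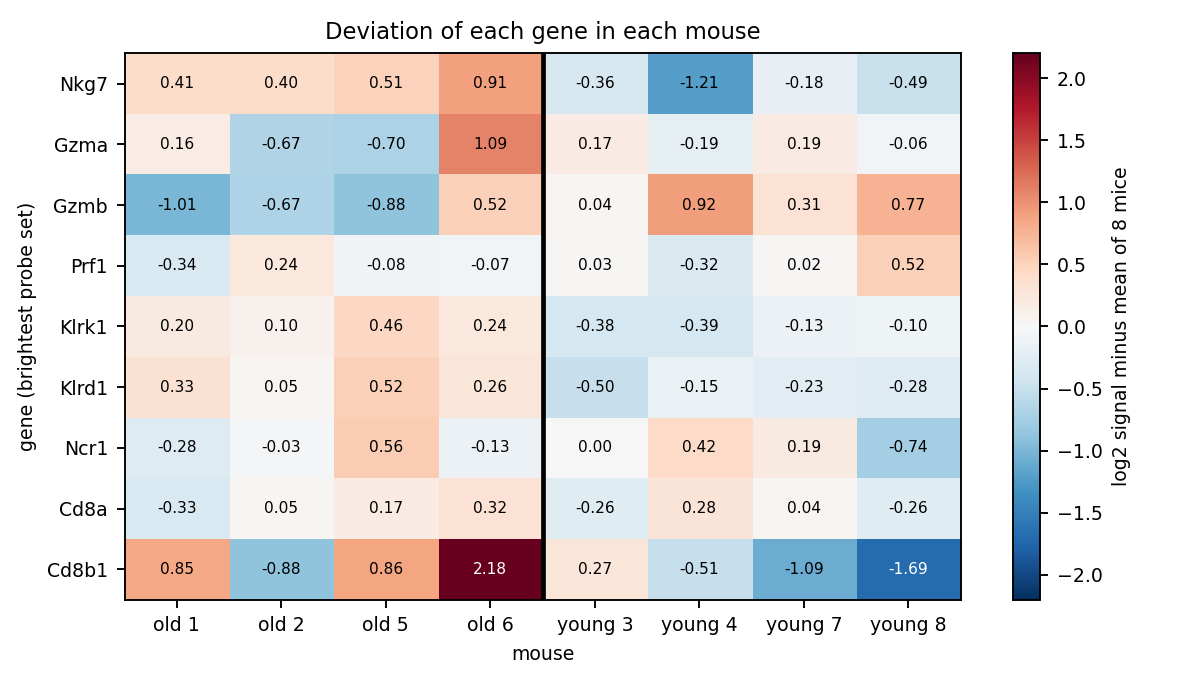
Log2 signal of each of the 9 genes in each mouse, less the gene's mean over the 8 mice, with old mice to the left of the black line and young mice to the right. Red is above and blue below the mean, and the rows of Nkg7, Klrk1 and Klrd1 are red in all old mice and blue in all young mice, while Gzmb is blue in old mice 1, 2 and 5.

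Promoters were looked up for the 3 members whose change lies farthest in its direction or is separated and for which an entry was at hand, Nkg7, Klrk1 and Gzmb. The sequences are from a set of RefSeq promoters on the GRCm38.p6 assembly. The set used here held 8 of the 10 members and none for Klrd1 and Cd8b1. Each sequence runs from 250 bases before to 50 after the annotated start, in the direction of the gene. Capitals mark matches, on either strand (so that ACCACA is the RUNX core read on the other strand), to the RUNX core TGTGGT, the T-box sequence AGGTGTGA or the ETS sequence AGGAAGT, families of factors known in cytotoxic lymphocytes. The motifs were chosen after these promoters had been seen, and they do not overlap each other in them. Nkg7 lies on the plus strand at chr7:43436888-43437187, Klrk1 on the minus strand at chr6:129623815-129624114 and Gzmb on the minus strand at chr14:56262285-56262584.
Nkg7: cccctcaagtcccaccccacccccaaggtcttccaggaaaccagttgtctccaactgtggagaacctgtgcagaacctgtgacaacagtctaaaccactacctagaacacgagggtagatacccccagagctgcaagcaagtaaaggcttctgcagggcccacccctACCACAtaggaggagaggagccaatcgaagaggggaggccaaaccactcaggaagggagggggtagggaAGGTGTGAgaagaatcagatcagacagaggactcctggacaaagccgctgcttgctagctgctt
Klrk1: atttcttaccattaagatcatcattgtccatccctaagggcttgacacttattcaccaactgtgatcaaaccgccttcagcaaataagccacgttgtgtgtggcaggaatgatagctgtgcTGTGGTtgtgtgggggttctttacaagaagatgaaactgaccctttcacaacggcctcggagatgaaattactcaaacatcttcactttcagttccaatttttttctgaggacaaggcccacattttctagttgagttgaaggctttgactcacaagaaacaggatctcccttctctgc
Gzmb: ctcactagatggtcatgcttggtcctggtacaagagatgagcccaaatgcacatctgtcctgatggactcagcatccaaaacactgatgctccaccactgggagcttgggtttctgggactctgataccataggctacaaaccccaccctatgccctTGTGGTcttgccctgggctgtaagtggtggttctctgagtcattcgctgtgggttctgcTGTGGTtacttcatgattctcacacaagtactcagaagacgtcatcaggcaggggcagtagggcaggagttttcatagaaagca
The Nkg7 window held 1 RUNX core and 1 T-box sequence, the Klrk1 window 1 RUNX core and the Gzmb window 2 RUNX cores, none of them with the ETS sequence. A RUNX core was found in 7 of the 8 members, all but Cd8a, and in 16.8% of all 32851 promoters of the same length. The T-box sequence was in 1 of the 8 members and 1.28% of all promoters, and the ETS sequence in 1, Prf1, and 9.35%. The RUNX core stood in both separated members with an entry, Nkg7 and Klrk1, and in 5 of the other 6. A match is a run of letters and no evidence of binding.

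Other genes of the cytotoxic programme were read from lists at the gene level, where 0.368% of all 18193 genes passed an adjusted p of 0.05 as higher in old mice and 0.181% as lower. An unadjusted p under 0.05 was reached by 7.31% of all genes as higher and 7.28% as lower, beside which the unadjusted counts of the lists stand. The adaptor list and the homing list each held 1 called gene, higher in old mice, and no gene of the pathway lists was called lower. The other granule and effector genes had 0 of 20 called (3 higher and 1 lower at an unadjusted p under 0.05), with a median log2 fold change of 0.21 beside -0.0047 for all genes. Srgn, the proteoglycan that packs granule proteins in many blood cells, read 2989, 4012, 3419 and 4333 in old mice, against 1755, 2226, 2582 and 2761 in young mice, a change of 0.67 (SE 0.18, adjusted p = 0.152) without overlap. Gzmf and Gzmg, of the granzyme cluster on chromosome 14, had values of 0.65 (SE 0.24, adjusted p = 0.274) and -1.85 (SE 0.45, adjusted p = 0.128). All signals of Gzmg were under 8, so its fold is between very dim readings.

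The other NK receptors had 0 of 20 measured genes called (3 higher and 0 lower at an unadjusted p under 0.05) and a median of 0.09. Their summed signal overlapped between the ages, at 1204 to 1801 in old mice and 1317 to 1576 in young mice. Klra17 read 66.4, 89.3, 81.3 and 71.1 in old mice, against 30.2, 63.5, 51.3 and 49.3 in young mice (0.70, SE 0.23, adjusted p = 0.215), the 1 gene of this list with complete separation. Klra17 is in the list as a Ly49-type gene, and whether its signal came from NK cells was not tested. Klrb1b had a change of 0.46 (SE 0.16, adjusted p = 0.254) and Klra8, an activating Ly49 receptor, of 1.502 (SE 0.64, adjusted p = 0.336), both with overlap.

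Of 11 measured adaptors and kinases, 1 was called. Fcer1g, the signalling chain of Fc receptors that also serves NKp46, rose to 1118, 1163, 1235 and 1178 in old mice, against 682, 829, 803 and 636 in young mice, a change of 0.68 (SE 0.10, adjusted p = 0.0445). Its gap between the ages was wider than the spread within either. Tyrobp, which encodes DAP12, an adaptor of NK receptors and of myeloid cells, read 1223, 1341, 1712 and 1694 in old mice, against 906, 1116, 1019 and 923 in young mice (0.58, SE 0.14, adjusted p = 0.116). Sh2d1a, the adaptor SAP, had 2.14 (SE 0.88, adjusted p = 0.319), and Hcst, which encodes the NKG2D adaptor DAP10, 0.41 (SE 0.26, adjusted p = 0.522). Fcer1g and Tyrobp are shared with macrophages and mast cells and do not mark NK cells alone.

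Among 12 transcription factors none was called (2 higher and 0 lower at an unadjusted p under 0.05), and the median was 0.15. Ikzf3 (1.19, SE 0.26, adjusted p = 0.101) and Prdm1 (1.16, SE 0.29, adjusted p = 0.138) were separated in the ages. Over the mean of its probe sets Ikzf3 had 0.22, so its value depends on the probe set read. Both are also expressed in B lineage cells, Prdm1 as the regulator of plasma cells. Ets1 had 0.24 (SE 0.11, adjusted p = 0.381), and 0.05 over the mean of its probe sets. The T-box factors of NK and CD8 T cells, Tbx21 and Eomes, named here for their role after the values were seen, had 0.14 (SE 0.16) and 0.15 (SE 0.30).

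Of 9 cytokines and their receptors none was called (2 higher and 0 lower at an unadjusted p under 0.05), with a median of 0.34. The chains of the interleukin 18 receptor, through which NK and T cells are primed for interferon production, were both separated. Il18r1 read 4018, 3936, 3927 and 3893 in old mice, against 3229, 2839, 2328 and 2519 in young mice (0.54, SE 0.11, adjusted p = 0.0819), and Il18rap had 0.39 (SE 0.12, adjusted p = 0.186). The mean of Il18r1 was 3943 in old and 2729 in young mice, above that of the leukocyte gene Ptprc, at 2043 and 1248. Signals of different probe sets need not share a scale, so their order is no ranking of RNA amounts. Il18rap averaged 170 and 129. The cells that gave these signals were not tested. Il12rb2 had 1.20 (SE 0.56, adjusted p = 0.379).

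Of 15 homing and residence genes, 1 was called and the median was 0.43. Cxcr6, a chemokine receptor of resident memory CD8 T cells, NK cells and other lymphocytes, rose to 296, 312, 453 and 436 in old mice, against 137, 196, 130 and 158 in young mice. The change was 1.26 (SE 0.19, adjusted p = 0.0447), and the lowest old mouse lay well above the highest young mouse. Its ligand Cxcl16 had 0.41 (SE 0.10, adjusted p = 0.135) and S1pr1, the receptor for egress from tissue, 0.45 (SE 0.12, adjusted p = 0.154), both separated. The calls of Fcer1g and Cxcr6 were lost whichever mouse was left out, with adjusted p of 0.0771 to 0.127 for Fcer1g and of 0.0717 to 0.129 for Cxcr6, while their changes stayed between 0.61 and 0.74 and between 1.16 and 1.38. Both calls were also lost without moderation of the variance and with a block for the mouse numbers, and that of Fcer1g with the mean of its probe sets.

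Ligands on target cells had 0 of 9 measured genes called (5 higher and 0 lower at an unadjusted p under 0.05) and a median of 0.20. Clec2d, a lectin that NKR-P1 receptors recognise, had 0.53 (SE 0.14, adjusted p = 0.152), Pvr, the poliovirus receptor seen by DNAM-1, 0.45 (SE 0.12, adjusted p = 0.152), and Nectin2, 0.20 (SE 0.07, adjusted p = 0.234), all without overlap of the ages. Over the mean of its probe sets Pvr had 0.21. Of the NKG2D ligands in the list, Raet1a to Raet1e and H60b had no probe set of their own and were not measured. H60c and Ulbp1, named for this link after the values were seen, were measured. Their changes were 0.38 (SE 0.15, adjusted p = 0.311) and -0.39 (SE 0.29, adjusted p = 0.603), both with overlap of the ages.

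**Figure D4:**
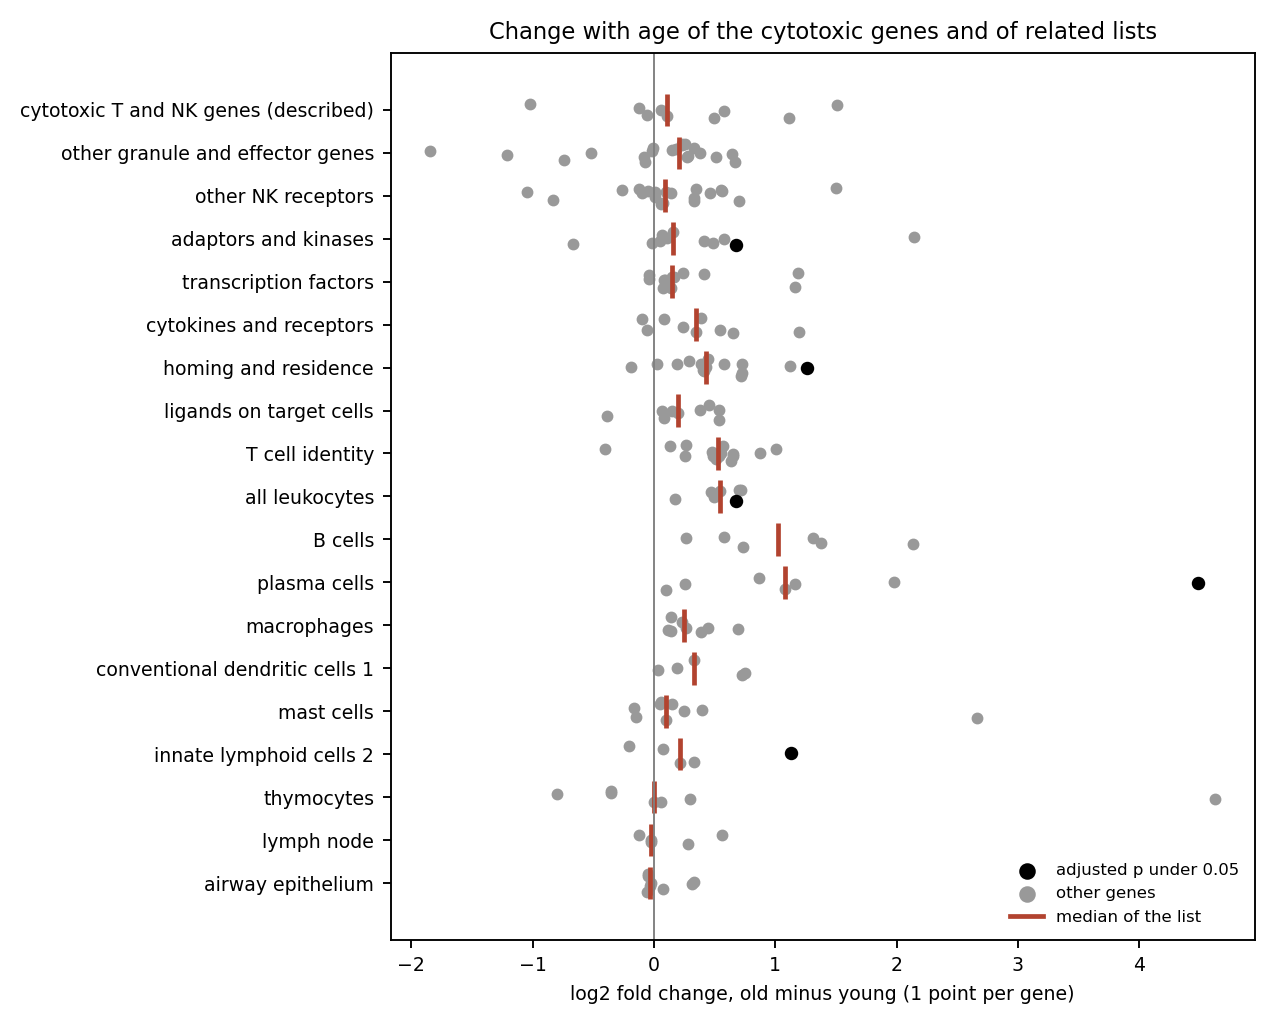
Log2 fold change of old minus young at the gene level for the cytotoxic genes and for related lists, with 1 point per gene, black where the adjusted p is under 0.05, and a red line at the median. The median of the cytotoxic genes is 0.10, that of the T cell identity list 0.53 and that of the B cell list 1.02.

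Lists of other blood cells had positive medians. Of 7 genes of all leukocytes, Cd53 was called (0.68, SE 0.10, adjusted p = 0.0445), a call that was lost whichever mouse was left out (0.0805 to 0.122), without moderation, with the block, with the mean of its probe sets and with quantile normalization or median centring. All 7 had a positive change, and the median was 0.55. Their summed signal was 5932 to 8300 in old mice and 4098 to 5244 in young mice. Of 16 T cell genes 0 were called (7 higher and 0 lower at an unadjusted p under 0.05), with a median of 0.53 and a sum of 1777 to 2225 in old mice and 1137 to 1479 in young mice. Lat, Cd3g and Cd3d, which belong to the T cell receptor complex or its signalling, were separated, with changes of 0.65 (SE 0.15), 1.004 (SE 0.25) and 0.87 (SE 0.22). The sums of leukocyte and T cell markers were thus separated between the ages as Nkg7, Klrk1 and Klrd1 were. So were the sums of B cell, plasma cell, macrophage and innate lymphoid cell markers, read below. Those of dendritic cell, neutrophil, mast cell and gamma delta T cell markers overlapped. The part of any of these cells in the changes of Nkg7, Klrk1 and Klrd1 was not tested. In RNA of a whole tissue, a change in the number of cells of a type and a change in RNA per cell cannot be told apart.

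B cell markers had a median of 1.02 over 6 genes (Cd79b 1.32, SE 0.28, and Ms4a1 1.38, SE 0.32), and of 7 plasma cell genes Jchain was called at 4.48 (SE 0.60, adjusted p = 0.0343), a call that was lost with any mouse left out (0.0582 to 0.107), without moderation and with the block. Macrophage genes had a median of 0.25 over 8 genes with C1qa at 0.39 (SE 0.07), type 1 dendritic cell genes 0.33 over 5 with Xcr1 at 0.75 (SE 0.12), and neutrophil genes 1.16 over 6 with S100a9 at 1.98 (SE 0.33) and Camp at -1.38 (SE 0.49). Camp and the mast cell gene Kit were named after the values were seen. Mast cell genes had a median of 0.10 over 9 with Mcpt2 at 2.66 (SE 0.54), while Cpa3 had -0.17 (SE 0.08) and Kit -0.15 (SE 0.10). The list for group 2 innate lymphoid cells had a median of 0.21 over 5 and held 1 called gene, Il7r (1.13, SE 0.16, adjusted p = 0.0392), which T cells also express, while Rora had -0.20 (SE 0.08, adjusted p = 0.301). Il7r kept its call only without old mouse 1 when a mouse was left out (0.0333 to 0.115) and lost it without moderation and with the mean of its probe sets. Gamma delta T cell genes had 0.26 over the 3 that were measured.

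Markers of tissues next to the airway were read as a check on dissection. Lymph node genes had a median of -0.02 over 5 and a summed signal of 254 to 350 in old mice and 247 to 299 in young mice, and thymocyte genes 0.0029 over 7. Rag1, the recombinase of developing lymphocytes, read 46.2, 2.19, 17.5 and 429 in old mice, against 0.98, 2.80, 0.83 and 0.89 in young mice, so that old mouse 6, the highest of the 8 for Nkg7, Gzma, Cd8a and Cd8b1, was the highest for Rag1 too. The other thymocyte genes were read after the values were seen. Old mouse 6 was the highest for Dntt and Themis (150 and 149) but not for Rag2 (5.87), Ptcra (11.8), Cd1d1 or Arpp21. Rag2 and Ptcra were highest in young mouse 7, at 44.7 and 54.0. Airway epithelial genes had a median of -0.03 over 8, and cartilage genes -0.18 over 6, of which 1 was positive. Acan (-0.56, SE 0.17) was lower and Comp (0.66, SE 0.17) higher in old mice without overlap, and Col9a1 had -1.01 (SE 0.30) with overlap. Thyroid genes had 0.09 over 4, with Tg at 1.14 (SE 0.42) and Pax8 at -0.08 (SE 0.24), both with overlap. Skeletal muscle genes had -0.15 over 5, of which 1 was positive, with Tnnt3 at -1.09 (SE 0.24) without overlap. The muscle sum, 1425 to 2139 in old mice and 2306 to 3133 in young mice, did not overlap. On average Tnnt3 was its largest part, with a mean of 785 in old and 1614 in young mice. The ages overlapped in each of the other muscle genes, of which Acta1 was the positive one. The part of unequal tissue content in the changes was not tested.

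The genes whose pattern over the 8 mice was most like the mean of the 9 cytotoxic genes, among 9095 brighter genes, were Ppm1g (Pearson 0.96), Snx18 (0.95), Slco2b1 (0.95), 2310034G01Rik (0.93), Tshz2 (0.92) and Macir (0.92). They were picked as the extremes of many candidates, and their own changes with age were 0.10 to 0.18 with adjusted p of 0.416 to 0.630.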

How the data were processed

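Total RNA from 8 mice, 1 array each, was read on the Affymetrix Mouse Genome 430 2.0 platform. The authors state that robust multichip analysis in Partek software was their normalization. The deposited intensity values are linear signals with a common trimmed mean, a form in which that analysis does not usually come, and the sources used here do not settle how they were made, so the fold changes rest on these signals as given. The number of arrays limits the precision.

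Signals were taken to log2 without a floor or filter. After 64 control probe sets were left out, 45037 remained, of which the platform annotation gives 1 symbol to 34945, several to 932 and none to 9160, and probe sets with several symbols name no gene here. The test of age, two-sided, was that of limma 3.58.1 (lmFit, then eBayes) under R 4.3.3, with Benjamini-Hochberg adjustment over all probe sets, or over 18193 genes with the brightest probe set of each. For single values a two-sided exact permutation test ran over 70 divisions of 8 mice. The steps were tested on simulated data. Nothing in the labels marks litters, cages, sources or hybridisation batches. The p-values set the change against the spread between these mice and take the mice as independent. A difference of litter, cage, source or batch that goes with age cannot be told apart from age.

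The members and lists were chosen with earlier results of these data known. Named are all members, up to 3 genes of each list with the smallest p, and 6 genes most like the members. Alternatives were to leave out each mouse, quantile normalization, median centring, floors of 32 and 64, the brighter of 2 equal parts of the array, no moderation, a trended and robust prior, array weights, a block for mice numbered 1 to 4 and those numbered 5 to 8, other rules for probe sets and a fold of 1.5.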

Additional observations from a re-analysis of the deposited data

Results flagged for a closer look

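Log2 signals of the member probe sets and of the genes named from the lists were searched for a mouse that stands apart from the other 3 of its age. Of 166 groups of 4 mice, 12 had such a mouse, and chance gives about 1 in 20. A single member was among them. The Cd8a probe set 1444078_at read 19.9 in young mouse 3, against 58.6 in the next lowest young mouse.

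The others were list genes. Cd3d read 376 in old mouse 6, against 223 in the next highest old mouse, and Sox13 read 610 in old mouse 6, against 421. Ms4a2 read 66.9 in old mouse 2, against 114, and Rora read 1197 in old mouse 1, against 1046. In young mouse 4, Lat read 188, against 153 in the next young mouse, Xcr1 read 103, against 90.3, and Rag1 read 2.80, against 0.98. In young mouse 7, Blk read 122, against 93.8, Pou2af1 read 41.8, against 65.2, and Krt5 read 1465, against 1681. Pax8 read 21.5 in young mouse 8, against 31.0. The high Rag1 and Gzma signals of old mouse 6 did not exceed the limit of this test.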

How the results depend on the processing

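No paired analysis was possible because old and young mice share no mouse number. Of the log2 fold changes of single member probe sets under all alternatives, 218 kept their direction and their side of the adjusted p threshold, 3 newly passed it and 6 changed sign, and at the gene level these were 151, 4 and 7. The count of member probe sets at an adjusted p under 0.05 and higher in old mice was 2 in the brighter part (Klrd1, and Klrk1, which is in that part through its old mice) and 1 with a trended and robust prior (Klrd1). For genes it was 1 with a floor of 64 (Nkg7), 1 in the brighter part (Klrd1) and 2 with the trended and robust prior. For Nkg7 the floor of 64 raised only the signal of young mouse 4 and so narrowed the spread of the young mice. Its probe set then had a smaller change, 0.95, with a smaller SE, 0.14, and the pass is no added support. By the fold of 2 with a p below 0.05 before adjustment, the counts of probe sets and of genes as higher were 0 with a floor of 64 and 0 in the brighter part, and as lower 0 with floors of 32 and 64 and 0 in the brighter part (a setting without Nkg7 and Gzmb). Separated genes as higher were 1 in the brighter part of the genes. With a mouse left out, these fold counts ran from 0 to 2 as higher, with 0 without young mouse 4 and 2 without old mouse 2 or young mouse 3 (for probe sets also old mouse 5), and from 0 to 1 as lower, with 0 when old mouse 1, 2 or 5 was left out, or young mouse 4 or 8, and separation as lower ran from 0 to 1, with Gzmb separated without old mouse 6.

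Ncr1 was -0.0090 with a floor of 64, Prf1 was 0.055 at the gene level with the mean of its probe sets, and Cd8a minus Cd3e was 0.0075 with the mean of all probe sets. With a mouse left out, Gzma ran from -0.43 to 0.17, Prf1 1450335_at from -0.25 to 0.026, Ncr1 from -0.18 to 0.21 and Cd8a minus Ncr1 from -0.098 to 0.21. The cause was not tested. A floor of 64 gave no value for Cd8b1, whose signals are all below it, and the floor of 32 gave 0.25 against 1.51, and the brighter part none for members in the dimmer part. Over all probe sets the counts at an adjusted p under 0.05 were 24 higher and 8 lower, against 270 and 227 in the brighter part, 314 and 241 with the trended and robust prior, 131 and 101 with a floor of 32, 69 and 60 with a floor of 64, 7 and 0 with the block of mouse numbers, 0 and 0 without moderation, and 0 to 12 and 0 to 6 with a mouse left out. Over all genes they were 67 and 33, against 221 and 220 in the brighter part, 270 and 217 with that prior, 140 and 109 and 140 and 119 with the floors of 32 and 64, 42 and 24 with the block, 40 and 31 without moderation, 46 and 11 with the mean of all probe sets, and 8 to 24 and 3 to 24 with a mouse left out. Dim signals limit Nkg7, Gzmb, Ncr1, Cd8b1 and the 5 Cd8a probe sets.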
